A study of Mus musculus with 6 samples.

Results

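Txnrd1, Txn1, Srxn1, Prdx1, Prdx2, Prdx3, Prdx4, Prdx5, Prdx6 and Cat encode the thioredoxin, peroxiredoxin and catalase system of the cell. These 10 genes were taken by their symbols from a count table of 35976 symbols, and 10 of the 10 were found and passed the filter on low counts that left 10636 genes to test. RAW264.7 cells, a mouse macrophage-like line, were exposed to itaconate for 24 h (3 libraries) or given no treatment (3 libraries), and their poly(A) RNA was sequenced from the 3′ end. Itaconate is a small dicarboxylic acid that mitochondria of activated macrophages produce. The labels give neither its dose nor its form, and name no vehicle and no time for the controls. They also leave unsaid if each library had its own culture. The p-values therefore measure only the spread between these libraries, which may be technical. The cells are a single transformed line grown in culture. In bulk RNA of this kind, fewer cells with a transcript and less transcript per cell cannot be told apart.

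Peroxiredoxins reduce hydrogen peroxide and organic peroxides with a cysteine that is oxidised in the process. Thioredoxin gives the electrons that reset most of them, and thioredoxin reductase, a selenoprotein, recharges thioredoxin with electrons from NADPH. Sulfiredoxin rescues peroxiredoxins whose cysteine has been oxidised too far for thioredoxin to reach. Catalase works apart from this chain, in peroxisomes, where it splits hydrogen peroxide without an electron donor. In macrophages these enzymes deal with the peroxide that follows the respiratory burst, and several of their genes are textbook targets of NRF2, the transcription factor that binds antioxidant response elements.

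The upstream sequences of 5 of the genes are shown because the genes differ in how far their transcripts moved and in whether a known element lies near the start. Each is the 250 bases before a RefSeq transcript start on GRCm38.p6, 5′ to 3′ on the gene's strand, in lower case. Capitals mark matches on either strand of TGACNNNGC, a strict form of the antioxidant response element core, and of TGANTCA, the AP-1 type of element. They also mark TGANTCAGC, a longer form of TGANTCA that was searched after the sequences had been read. TGANTCAGC has the TGA and GC of TGACNNNGC at the same spacing. The Srxn1 stretch is chr2:152105274-152105523 on the plus strand, that of Prdx1 is chr4:116685349-116685598 on the plus strand, and that of the second of 3 listed Txnrd1 starts is chr10:82858956-82859205 on the plus strand. The Cat stretch is chr2:103485154-103485403 on the minus strand and that of Prdx2 is chr8:84969372-84969621 on the plus strand.
Srxn1: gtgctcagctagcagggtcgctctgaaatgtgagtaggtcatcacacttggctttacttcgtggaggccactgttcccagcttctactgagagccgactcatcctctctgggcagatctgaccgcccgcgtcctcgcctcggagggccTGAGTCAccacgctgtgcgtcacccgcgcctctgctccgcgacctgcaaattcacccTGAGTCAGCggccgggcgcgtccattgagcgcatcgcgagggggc
Prdx1: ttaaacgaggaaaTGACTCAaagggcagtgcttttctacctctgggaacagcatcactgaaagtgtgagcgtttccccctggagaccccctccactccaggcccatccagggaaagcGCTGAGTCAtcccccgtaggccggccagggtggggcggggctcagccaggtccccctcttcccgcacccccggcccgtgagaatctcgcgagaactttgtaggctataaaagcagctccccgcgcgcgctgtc
Txnrd1: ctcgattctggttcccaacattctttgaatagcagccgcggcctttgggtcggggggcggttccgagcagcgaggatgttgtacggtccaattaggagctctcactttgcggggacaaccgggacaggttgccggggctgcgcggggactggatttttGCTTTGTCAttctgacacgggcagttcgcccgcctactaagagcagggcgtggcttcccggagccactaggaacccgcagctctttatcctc
Cat: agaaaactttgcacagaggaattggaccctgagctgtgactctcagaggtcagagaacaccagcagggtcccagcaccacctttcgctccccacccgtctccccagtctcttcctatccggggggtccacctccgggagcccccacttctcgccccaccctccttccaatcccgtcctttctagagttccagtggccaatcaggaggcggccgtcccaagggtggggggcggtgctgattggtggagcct
Prdx2: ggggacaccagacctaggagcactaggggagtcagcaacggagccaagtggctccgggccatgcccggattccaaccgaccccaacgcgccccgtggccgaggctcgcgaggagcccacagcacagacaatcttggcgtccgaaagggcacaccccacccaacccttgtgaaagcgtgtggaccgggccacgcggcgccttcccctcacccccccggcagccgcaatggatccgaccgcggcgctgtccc

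Promoters of 9 of the 10 genes were matched in the RefSeq table by symbol, with Prdx6 as the other. The Srxn1 stretch held TGANTCA at 2 places, beginning 102 and 45 bases before the start. The Prdx1 stretch held TGANTCA at 2 places, 237 and 131 bases before the start, and TGACNNNGC on the opposite strand 133 bases before it, in a match that overlaps the nearer TGANTCA. Txnrd1 held TGACNNNGC on the opposite strand, 92 bases before its second start. The longer form TGANTCAGC matched at 1 place in Srxn1, 45 bases before the start, where the last GC in capitals belongs to it, and at 1 place in Prdx1. The Srxn1 stretch held no TGACNNNGC, and in Prdx1 the long form and TGACNNNGC are the same letters. The stretches of Txn1, Prdx2, Prdx3, Prdx4, Prdx5 and Cat, and of the other Txnrd1 starts, held none of these letters. Over all 32851 RefSeq promoter stretches of this length, 10.2% held TGACNNNGC, 6.75% held TGANTCA and 1.02% held TGANTCAGC. TGANTCA lay at 2 or more places in 0.338% of them. Counted by gene over any listed start, 14.2% of 8155 tested genes held TGACNNNGC, 5.09% TGANTCA and 1.05% TGANTCAGC. A match is a string of letters, and reads from the 3′ end do not tell which start the cells used.

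Itaconate-exposed cells had more transcript of 7 of the 10 genes and less of 1, while 2 did not pass the test. Srxn1 and Cat were 10.6-fold and 10.05-fold higher, Prdx1 and Txnrd1 4.44-fold and 4.29-fold higher, Txn1 1.99-fold, Prdx6 1.73-fold and Prdx5 1.55-fold higher. Prdx4 was the gene called lower, and Prdx2 and Prdx3 were not called. A gene was called when its p from edgeR's quasi-likelihood test, adjusted by Benjamini-Hochberg over all genes tested, was under 0.05. Over all 10636 genes tested, 10.7% were called higher and 11.2% lower, 21.9% in all. Every itaconate library lay above every control library for 7 of the 10 genes and below for 1, against 17.6% and 17.9% of all genes tested. The median log2 fold change of the 10 genes was 0.89, against -0.01 over all genes tested.

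The libraries held 5382694 to 5923536 counts in the itaconate group and 5202626 to 6098934 in the control group. CPM are the counts scaled to a common library size. A floor of 3 counts stood for 0.492 to 0.577 CPM by library totals alone, and no gene was left out by this floor. The 10 genes took 45739 to 53456 counts per itaconate library and 13759 to 16364 per control library. Log2 CPM correlated across genes at 0.963 to 0.970 within groups and 0.930 to 0.934 between groups (Pearson, across genes, which are not independent replicates). Macrophage markers were present, 10 of 10 with counts, with a summed level of 7208 to 7459 CPM in itaconate and 8356 to 9839 CPM in control libraries. Marker lists for epithelium, fibroblasts, B cells and T or NK cells each summed to at most 2.10 CPM in any itaconate library and 1.62 CPM in any control library. Col3a1, Dcn, Lum, Cd3e, Cd8a, Ncr1, Ms4a1, Cd79a, Pax5, Krt8, Krt18 and Krt19 were at 0 counts in every library. Of the 10 macrophage markers, 5 were called lower, 1 higher and 4 were not called. Csf1r, the receptor for macrophage colony-stimulating factor, averaged 1837 CPM in itaconate and 3693 CPM in control libraries, while the lysosomal marker Cd68 was called higher, at 1346 CPM in itaconate and 1095 CPM in control libraries. The part of these marker differences in the results was not tested.

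**Figure D1:**
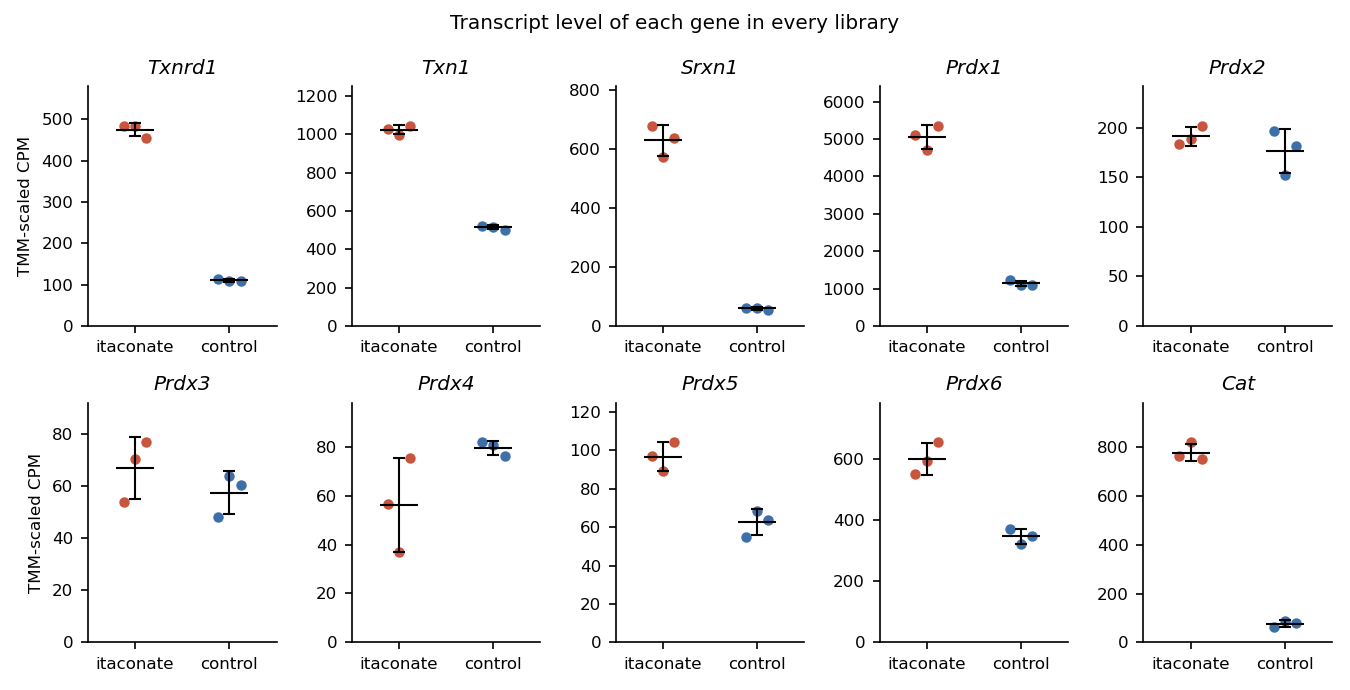
Level of each of the 10 genes in TMM-scaled CPM (vertical axes from 0, one scale per gene) in 3 itaconate libraries, left, and 3 control libraries, right. Points are libraries, and bars give the mean and SD. For Txnrd1, Txn1, Srxn1, Prdx1, Prdx5, Prdx6 and Cat every itaconate point lies above every control point, for Prdx4 below, and for Prdx2 and Prdx3 the points overlap.

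Thioredoxin reductase 1, the cytosolic and nuclear enzyme that keeps thioredoxin reduced, is encoded by Txnrd1 on chromosome 10 from 82833951 to 82897712 (GRCm38, plus strand). Its level was 484.1, 484.1 and 456.2 CPM in the itaconate libraries, against 114.3, 109.5 and 108.2 CPM in the control libraries. The groups were far apart, and within each the libraries differed by little. Txnrd1 rose by 2.10 ± 0.09 log2 units (SE, n = 3 each, adjusted p = 6.48e-25 by edgeR), and that p was number 15 in order among all genes tested.

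Txn1, on chromosome 4 from 57943373 to 57956411 (minus strand), encodes the cytosolic thioredoxin that the reductase serves. It had 1029, 998.2 and 1044 CPM in itaconate libraries and 523.8, 518.6 and 502.3 CPM in control libraries. The groups did not overlap, and the rise was 0.99 ± 0.08 log2 units (adjusted p = 2.38e-15 by edgeR). The log2 ratio of Txnrd1 to Txn1 CPM was -1.11 ± 0.08 in itaconate libraries and -2.22 ± 0.02 in control libraries (SD, n = 3), a difference of 1.11 (p = 0.1 in an exact two-sided permutation test, the lowest value open to groups of 3). That ratio was one of 17 sums, shares and ratios compared in this way, and 0.1 becomes 0.113 when adjusted over the 17.

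Srxn1, on chromosome 2 from 152105516 to 152111376 (plus strand), encodes sulfiredoxin, the repair enzyme for overoxidised peroxiredoxins. Its counts were 3595, 3060 and 3636 in the itaconate libraries and 371, 383 and 289 in the control libraries, which scale to 677.0, 571.8 and 635.8 CPM with itaconate and 62.1, 62.2 and 53.9 CPM in controls. The lowest itaconate library stood well above the highest control library. The rise of 3.40 ± 0.10 log2 units (adjusted p = 1.96e-31 by edgeR) had the smallest p of the 10636 genes tested. Its typical 2-Cys substrates are the products of Prdx1, Prdx2, Prdx3 and Prdx4. Among these, Prdx1 averaged 5052.5 CPM in itaconate and 1138 CPM in control libraries. Prdx2, the next largest, averaged 191.2 CPM in itaconate and 176.8 CPM in control libraries. A ratio to their sum is therefore mostly a ratio to Prdx1. Set against the summed CPM of those 4 genes, the log2 ratio of Srxn1 was -3.10 ± 0.09 in itaconate and -4.61 ± 0.11 in control libraries (SD, n = 3), a difference of 1.52 (p = 0.1, exact permutation test, adjusted 0.113).

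Of the 6 peroxiredoxin genes, Prdx1, Prdx5 and Prdx6 rose, Prdx4 fell, and Prdx2 and Prdx3 were not called. Prdx1, on chromosome 4 from 116685544 to 116700822 (plus strand), encodes an abundant cytosolic enzyme that also relays peroxide signals to other proteins. It had 5116, 4693 and 5348 CPM in itaconate libraries, against 1223, 1099 and 1093 CPM in control libraries. The groups lay far apart, with a rise of 2.15 ± 0.07 log2 units (adjusted p = 9.07e-29 by edgeR). Of the 50-base stretches in the last 500 bases of its transcripts, 21.3% also occur in other genes, among them Gm21399 and Gm7204, so some of its reads may have been lost or misplaced in counting.

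Prdx2, on chromosome 8 from 84969587 to 84974834 (plus strand), encodes the other cytosolic member of the typical 2-Cys class. It had 183.2, 188.7 and 201.8 CPM in itaconate libraries and 196.4, 152.4 and 181.5 CPM in control libraries. The values overlapped, and the log2 fold change of 0.11 ± 0.10 was not called (edgeR adjusted p = 0.464), with a 95% interval of -0.08 to 0.31. The log2 ratio of Prdx1 to Prdx2 was 4.72 ± 0.08 in itaconate and 2.69 ± 0.14 in control libraries (SD, n = 3), a difference of 2.03 (p = 0.1, exact permutation test, adjusted 0.113). Of the stretches at its 3′ end, 17.9% also occur in Junb or in Prdx2 copies such as Prdx2-rs3. Exons of Junb and Rnaseh2a overlap those of Prdx2 on the opposite strand, and the strand setting of the counting is not given in the sources used here. Junb averaged 164.4 ± 16.8 CPM in itaconate and 159.2 ± 29.6 CPM in control libraries (SD, n = 3), and Rnaseh2a 30.5 ± 1.54 CPM in itaconate and 35.7 ± 6.01 CPM in control libraries, both not called.

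Prdx3, on chromosome 19 from 60864051 to 60874556 (minus strand), encodes the mitochondrial peroxiredoxin, which works with the mitochondrial thioredoxin pair. It had 53.7, 70.4 and 76.6 CPM in itaconate libraries and 48.04, 63.8 and 60.3 CPM in control libraries. The groups overlapped, and its log2 fold change was 0.22 ± 0.15 with an interval of -0.07 to 0.52 (edgeR adjusted p = 0.312). Its partners were not called either: the mitochondrial thioredoxin gene Txn2 had a log2 fold change of 0.03 ± 0.10 (edgeR adjusted p = 0.887) and the mitochondrial reductase gene Txnrd2 -0.06 ± 0.20 (0.875). Both were looked up outside the rule for named genes, after their values were seen.

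Prdx4, on chromosome X from 155323918 to 155340754 (minus strand), encodes the peroxiredoxin of the endoplasmic reticulum, where it takes part in oxidative protein folding. It had 56.5, 37.0 and 75.2 CPM in itaconate libraries and 81.7, 80.6 and 76.1 CPM in control libraries. All itaconate values lay below all control values, but itaconate replicate 3 lay only just below control replicate 3. The log2 fold change was -0.50 ± 0.16 (edgeR adjusted p = 0.0274). Its itaconate libraries had a coefficient of variation of 34.0%, against 5.69% from counting alone, while the control libraries had 3.70%. Without itaconate replicate 2, the lowest library, the log2 fold change was -0.27 ± 0.15 (edgeR adjusted p = 0.254), and the call was also lost without itaconate replicate 1 (0.057) or any 1 of control replicates 1, 2 and 3 (0.0676, 0.0811 and 0.0541).

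Prdx5, on chromosome 19 from 6906697 to 6910106 (minus strand), encodes an atypical 2-Cys enzyme found in mitochondria, peroxisomes and cytosol. It had 97.0, 89.1 and 104.0 CPM in itaconate libraries and 55.1, 68.5 and 63.8 CPM in control libraries. The groups were apart, with a rise of 0.63 ± 0.13 log2 units (adjusted p = 0.000145 by edgeR). Exons of Trmt112 overlap it on the opposite strand, a gene with 4.72 ± 1.15 CPM in itaconate and 6.06 ± 1.51 CPM in control libraries (SD, n = 3). Prdx6, on chromosome 1 from 161240112 to 161251219 (minus strand), encodes the 1-Cys enzyme, which uses glutathione in place of thioredoxin and also acts on phospholipids. It had 551.4, 593.4 and 654.7 CPM in itaconate libraries and 371.0, 321.3 and 349.5 CPM in control libraries. These groups were also apart, with a rise of 0.79 ± 0.08 log2 units (adjusted p = 1.11e-10 by edgeR).

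**Figure D2:**
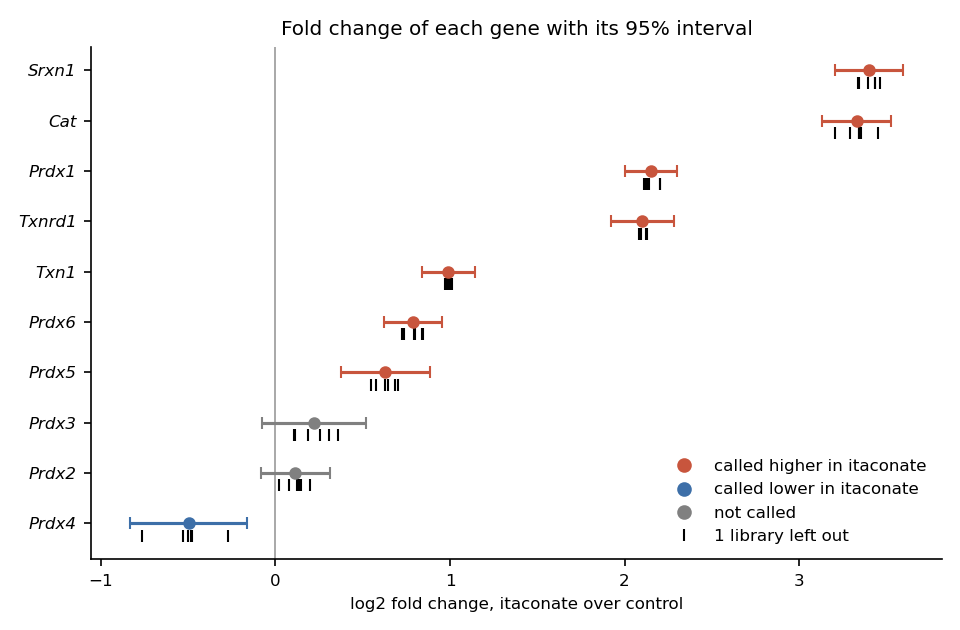
Log2 fold change of itaconate over control for the 10 genes (points) with 95% intervals from edgeR, coloured by call, and the same value with 1 library left out (black ticks). The 4 genes at the top, Srxn1, Cat, Prdx1 and Txnrd1, lie at 2.10 or more, and the ticks of Prdx4 run from -0.76 to -0.27.

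Catalase is encoded by Cat on chromosome 2 from 103453849 to 103485160 (minus strand). Its counts were 4067, 4390 and 4296 in itaconate libraries and 382, 552 and 423 in control libraries, which scale to 765.9, 820.3 and 751.2 CPM with itaconate and 63.9, 89.7 and 78.9 CPM in controls. No library came near the other group, and the control libraries scattered more, with a coefficient of variation of 16.7% against 4.67% in itaconate libraries. Cat rose by 3.33 ± 0.10 log2 units (adjusted p = 5.50e-31 by edgeR), number 4 of all genes tested in the order of p. The log2 ratio of Srxn1 to Cat was -0.31 ± 0.18 in itaconate and -0.37 ± 0.29 in control libraries (SD, n = 3), a difference of 0.06 (p = 0.8, exact permutation test). The log2 ratio of Cat to Txnrd1 was 0.71 ± 0.05 in itaconate and -0.53 ± 0.28 in control libraries (p = 0.1, exact permutation test, adjusted 0.113).

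Summed over the 10 genes, the level was 9014, 8546 and 9347 CPM in itaconate libraries and 2739, 2566 and 2567 CPM in control libraries. The ratio of the means was 3.42 (p = 0.1, exact permutation test, adjusted 0.113). Prdx1 carries much of that sum: without it, the other 9 genes summed to 3917 ± 74.8 CPM in itaconate and 1486 ± 26.7 CPM in control libraries (SD, n = 3), a ratio of 2.64.

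The share of each gene among the peroxiredoxin transcripts did not overlap between the groups. The 6 shares of a library add up to the whole, so a larger Prdx1 share lowers the others. The 6 comparisons are therefore not independent results. Prdx1 gave 84.5%, 82.7% and 82.8% of the summed CPM of the 6 genes in itaconate libraries, against 61.9%, 61.6% and 59.9% in control libraries. The share of Prdx2 was 3.16% ± 0.154 in itaconate and 9.48% ± 0.817 in control libraries (SD, n = 3), and that of Prdx6 was 9.90% ± 0.710 in itaconate and 18.6% ± 0.597 in control libraries. Prdx4 held 0.916% ± 0.256 in itaconate and 4.27% ± 0.207 in control libraries. Prdx3 held 1.10% ± 0.191 in itaconate and 3.10% ± 0.597 in control libraries, and Prdx5 held 1.59% ± 0.0204 in itaconate and 3.38% ± 0.536 in control libraries. The shares of Prdx5 and Prdx6 were lower in itaconate libraries although their levels were higher, as the Prdx1 part of the sum was larger there. Prdx2 and Prdx3 also had lower shares, although neither gene was called. Each share gave p = 0.1 in an exact permutation test (adjusted 0.113). A read of these libraries comes from the 3′ end of a transcript, so the shares are of counted ends, not corrected for length, and compare a gene with itself between groups.

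**Figure D3:**
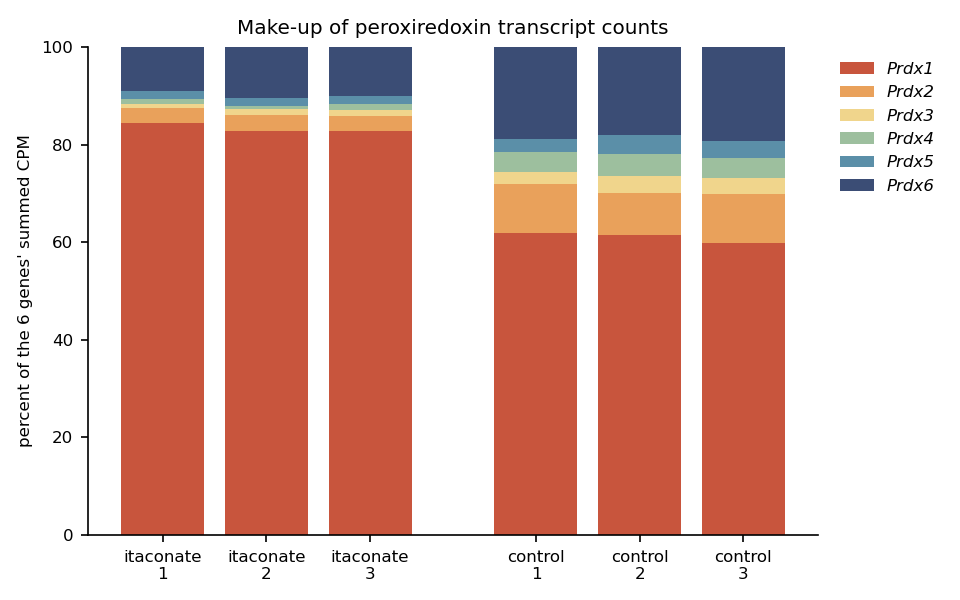
Percent of the summed CPM of Prdx1 to Prdx6 that each gene gave (stacked, 0 to 100%) in 3 itaconate libraries, left, and 3 control libraries, right. The Prdx1 part reaches 82.7% to 84.5% in itaconate libraries and 59.9% to 61.9% in control libraries.

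Over the 6 libraries, Abcc1, Tgm2 and Lipa lay nearest to Txnrd1. The distance was the root mean square difference of log2 CPM centred on the control mean. It was not scaled, so it mostly follows how far each gene rose. Symbols that start with Gm and digits or end in Rik were left out of the search. The 3 genes rose by 2.18, 2.09 and 2.13 log2 units, against 2.10 for Txnrd1. Abcc1, an exporter of glutathione conjugates, lay at 0.07, the transglutaminase gene Tgm2 at 0.09 and the lysosomal acid lipase gene Lipa at 0.11. Abcc1 had 339.3, 334.3 and 289.9 CPM in itaconate libraries and 73.2, 70.01 and 68.7 CPM in control libraries. Prdx1 lay at 0.09, with 2 of the searched genes from outside the system closer to Txnrd1. Srxn1 lay at 0.92 and Txn1 at 0.78. Both also rose, by 3.40 and 0.99 log2 units, so their distances mostly reflect a larger and a smaller rise.

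The related lists are short, and their counts are to be read against the 21.9% of all genes tested that were called. Of 16 tested thioredoxin-fold partners, 4 were called higher, 1 lower and 11 were not called, with a median log2 fold change of 0.16. Txnrd3, the thioredoxin and glutathione reductase best known from testis, had 13.7, 7.66 and 9.27 CPM in itaconate libraries and 3.52, 2.60 and 1.87 CPM in control libraries, and rose by 1.93 ± 0.44 log2 units (adjusted p = 0.000752 by edgeR). The cytosolic thioredoxin-like genes Txndc17 and Txnl1 rose by 0.36 ± 0.10 and 0.36 ± 0.11 (edgeR adjusted p = 0.00626 and 0.011), and Txndc12, of the endoplasmic reticulum, by 0.45 ± 0.15 (0.0259). The call of Txndc17 was lost without control replicate 2 (0.0753), and that of Txnl1 without itaconate replicate 1 (0.0923) or control replicate 2 (0.0933). Txndc12 was not called with library totals (0.0572), nor without itaconate replicate 2 (0.105) or 3 (0.0524) or control replicate 1 (0.108) or 2 (0.132). Txnip, which binds and inhibits thioredoxin, had 449.7, 520.9 and 502.7 CPM in itaconate libraries and 514.4, 623.2 and 809.4 CPM in control libraries. Its exons overlap those of Gm15441 on the opposite strand, as those of Txnl1 do with Wdr7. The Txnip groups overlapped, and its log2 fold change of -0.40 ± 0.11 (edgeR adjusted p = 0.0118) was not called with DESeq2 (0.153), nor without itaconate replicate 3 (0.191) or control replicate 3 (-0.21, 0.109).

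Glutathione serves the other route of peroxide removal. Of 7 tested glutaredoxin and glutathione peroxidase genes, 1 was called higher, 1 lower and 5 were not called, with a median of 0.04 on the log2 scale. Gsr, the reductase that recharges glutathione, had 106.8, 104.5 and 101.8 CPM in itaconate libraries and 18.6, 18.4 and 22.0 CPM in control libraries, and rose by 2.41 ± 0.15 log2 units (adjusted p = 1.57e-18 by edgeR). Gpx1, the cytosolic selenium-dependent glutathione peroxidase, had 189.3, 186.5 and 206.3 CPM in itaconate libraries, against 566.0, 532.3 and 525.2 CPM in control libraries. Its groups lay apart in the other direction from Prdx1 and Cat, with a log2 fold change of -1.48 ± 0.09 (edgeR adjusted p = 8.99e-20). Glrx5, the mitochondrial glutaredoxin of iron-sulfur cluster transfer, had 0.21 ± 0.10 (0.129). Gpx4, which reduces lipid peroxides, had -0.18 ± 0.36 (0.783), a value that is uncertain because 89.9% of the searched stretches at its 3′ end occur in other genes.

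Among 5 tested methionine sulfoxide reductase and sestrin genes, 1 rose, 2 fell and 2 were not called, with a median log2 fold change of -0.63. Msrb1, a selenoprotein that repairs oxidised methionine in cytosol and nucleus, rose by 0.55 ± 0.10 on the log2 scale, with 182.5 ± 10.7 CPM in itaconate and 124.7 ± 11.9 CPM in control libraries (SD, n = 3, edgeR adjusted p = 3.63e-05). Msra, which repairs the other stereoisomer, had 7.84 ± 1.25 CPM in itaconate and 16.7 ± 7.10 CPM in control libraries and a log2 fold change of -1.08 ± 0.31 (edgeR adjusted p = 0.00827), lost without control replicate 3 (-0.69, 0.194). The stress-induced gene Sesn1 had a log2 fold change of -0.63 ± 0.18 (0.00648), and the mitochondrial Msrb2 had -1.05 ± 0.46 (0.0952).

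Thioredoxin reductase, Gpx1 and Msrb1 all carry selenocysteine, which is put in at a stop codon by dedicated factors. Of 8 tested genes for that machinery, 1 was called higher, 0 lower and 7 were not called, with a median of 0.04. Trnau1ap, which binds the selenocysteine tRNA, rose by 0.72 ± 0.24 log2 units (adjusted p = 0.026 by edgeR), a call lost without itaconate replicate 2 (0.125) or control replicate 1 (0.108) or 2 (0.062). The kinase gene Pstk, which acts on that tRNA, had 0.82 ± 0.31 (0.0524, and 0.0482 with the replicate number as a block, 22.9% of its 3′ stretches shared), Sephs1 -0.38 ± 0.19 (0.15) and the selenocysteine lyase gene Scly 0.25 ± 0.16 (0.304). Of 10 other tested selenoprotein genes, 0 were called higher and 2 lower, with a median of -0.09, again near the 21.9% called over all genes tested. Sepp1, which encodes the secreted selenium carrier selenoprotein P, with 10.9, 12.1 and 12.9 CPM in itaconate libraries and 36.2, 43.9 and 42.0 CPM in control libraries, decreased by 1.76 ± 0.21 log2 units (adjusted p = 2.22e-09 by edgeR). The selenoprotein H gene, listed as 2700094K13Rik, had a log2 fold change of -1.13 ± 0.16 (edgeR adjusted p = 3.67e-07). Sepn1 and Selk, both of the endoplasmic reticulum, had 0.42 ± 0.16 (0.0575, and 0.0463 with DESeq2) and 0.29 ± 0.11 (0.0666, and 0.0256 without control replicate 2).

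Of 29 tested genes for the peroxisome, where catalase works, 4 were called higher, 2 lower and 23 were not called, with a median of 0.23 on the log2 scale. These calls are near the 21.9% of all genes tested. Pex10, a ubiquitin ligase of peroxisomal protein import, rose by 0.78 ± 0.15 (edgeR adjusted p = 5.55e-05), and Abcd3, a fatty acid importer of the peroxisomal membrane, by 0.56 ± 0.14 (0.00162). The thiolase gene Acaa1a had a log2 fold change of -0.30 ± 0.09 (0.0135). Stretches at the 3′ end of Acaa1a are shared to 33.3% with Acaa1b and Myd88, and its call was lost without itaconate replicate 1 (0.0643) or control replicate 2 (0.0557) or 3 (0.0773). The protease gene Lonp2 had 0.53 ± 0.19 (0.0393) with overlapping groups, and was not called with DESeq2 (0.0701), with library totals (0.0677), or without itaconate replicate 2 (0.187) or 3 (0.0848) or control replicate 2 (0.126) or 3 (0.256). The oxidase gene Acox3 had 0.37 ± 0.14 (0.049) and was not called in 8 of 12 alternatives, with adjusted p of 0.0178 to 0.227 over the 12.

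Of 6 tested genes whose products receive electrons or signals from thioredoxin or peroxiredoxins, 0 were called higher and 2 lower, with a median of -0.29. Both are subunits of ribonucleotide reductase, which makes deoxynucleotides and is reset by thioredoxin. Rrm1 had 22.4, 23.0 and 19.8 CPM in itaconate libraries and 84.7, 61.6 and 64.0 CPM in control libraries, and fell by 1.69 ± 0.17 log2 units (adjusted p = 1.84e-11 by edgeR). Rrm2 fell by 2.22 ± 0.29 (3.42e-08), with 3.58, 6.35 and 5.95 CPM in itaconate libraries and 25.1, 29.6 and 19.4 CPM in control libraries. Of the stretches at the 3′ end of Rrm2, 9.69% occur in other genes. Apex1, a DNA repair and redox factor, had a log2 fold change of -0.27 ± 0.13 (0.16) with 74.5% of its 3′ stretches shared with other genes.

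**Figure D4:**
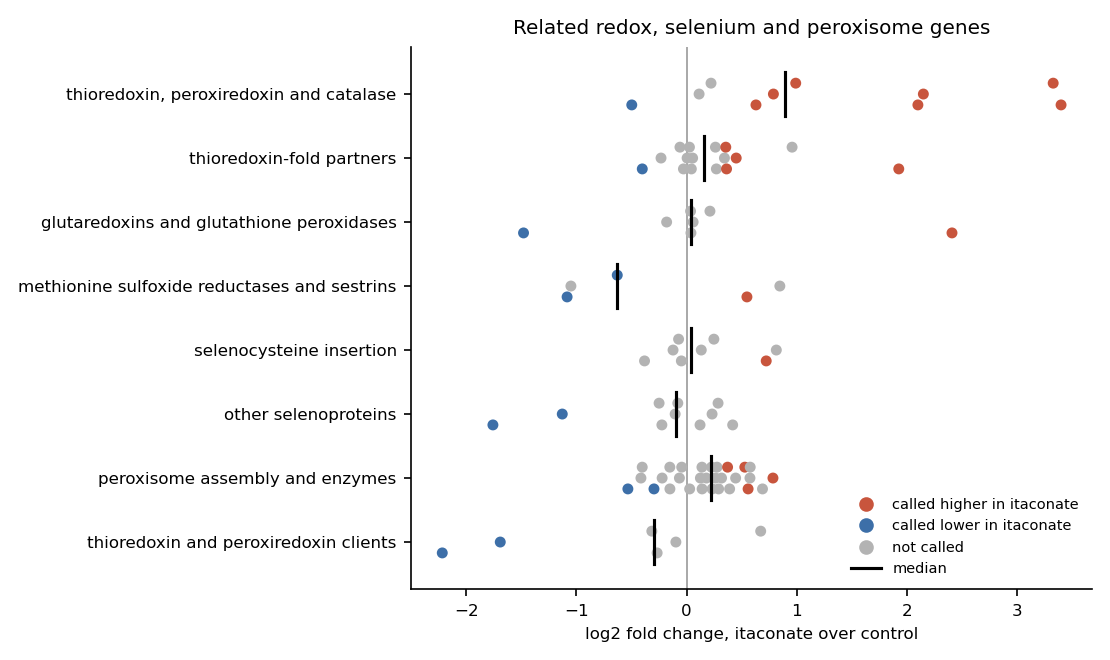
Log2 fold change of itaconate over control for each tested gene of the 10-gene system (top) and of 7 related lists, coloured by call, with the median of each list as a black line. The system has its median at 0.89, and the related lists have theirs between -0.63 and 0.23. Gsr (2.41) and Txnrd3 (1.93) stand to the right of their lists. Rrm2 (-2.22), Sepp1 (-1.76), Rrm1 (-1.69) and Gpx1 (-1.48) stand to the left of theirs.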

How the data were processed

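Poly(A) RNA of 3 itaconate and 3 control libraries was measured with a QuantSeq FWD 3′ kit after TRIzol extraction, per the labels' protocols. The authors deposited raw counts of reads per gene symbol, not normalized. Tools named in the submitters' processing notes are HTSeq 0.6.1, STAR 2.7.5a and edgeR, with the build mm10; what each was used for is not stated there. Not given in the sources used here are the annotation version, trimming, the strand setting and the handling of reads with several places. Counted ends near shared 3′ sequence can be lost or misplaced, and without molecular identifiers a read is not one molecule, so floors cover counting error only. The 6 count columns were matched to samples by header name; 0 other columns were present, and 0 rows lacked a gene.

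Genes were kept by edgeR's filterByExpr (minimum count 10, minimum total 15), which left 10636 genes with 99.7% of counts, and libraries were scaled by TMM. Testing used edgeR 4.0.16 in R 4.3.3 (robust quasi-likelihood, two-sided), with group as the only term. Each SE was taken as the size of the log2 fold change over the root of its F value. CPM are TMM-scaled. The procedure was tested on simulated data. Alternatives were DESeq2 1.42.0, library totals, DESeq2 size factors, other filters, the replicate number as a block, and leaving out each library. For the named genes of the related lists and those nearest to Txnrd1, they were added after seeing the data. Replicate libraries differed by more than sampling of reads (chi-square per gene 4.78 to 7.67).

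The 10 genes, the 7 related lists and the rules were chosen with earlier results of these data known. Named were the 10 genes and the 4 genes of smallest p in each list, with every called gene where 6 or fewer were called. Also named were the 3 genes nearest to Txnrd1, among symbols neither starting with Gm and digits nor ending in Rik. Some genes that this rule names are not reported here. Gene positions and shared 3′ stretches come from GENCODE M21 (GRCm38, the assembly mm10 names), promoters from RefSeq (GRCm38.p6).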

Additional observations from a re-analysis of the deposited data

How the results depend on the processing

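Over 12 alternatives, 7 genes of the system (Txnrd1, Txn1, Srxn1, Prdx1, Prdx5, Prdx6 and Cat) were called higher in each, and Prdx2 and Prdx3 were not called in any. Prdx4 kept its negative sign in all 12. Its call was lost in 5 of the 6 fits that left out 1 library, over which its log2 fold change ran from -0.76 to -0.27 and the number of genes of the system called lower from 0 to 1. The number of called thioredoxin-fold partners ran from 2 to 4 in these 6 fits, against 5 with all libraries, and that of selenocysteine insertion genes from 0 to 1. With the replicate number as a block, 7 genes of the system were higher and 1 lower, and 2 selenocysteine insertion genes were called, against 1 without it. Same-numbered libraries correlated at -0.01, 0.02 and 0.04 in their deviations from the group means, so the numbers were not taken as pairs, and not every library correlated best with its own number. The ratio of the summed level ran from 3.35 to 3.50 with 1 library left out. With 3 libraries a group, single sums and ratios cannot reach an exact permutation p below 0.1, and genes of a few CPM, such as Txnrd3 and Msrb2, carry SEs above 0.4. The causes of these changes were not tested.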
